A study of Mus musculus with 13 samples.

Results

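Tumor leukocytes taken at T2 during fractionated radiotherapy, with 5 planned doses of 2 Gy (2 Gy × 5), were set against leukocytes from tumors that received 0 Gy and were taken at the same time. The comparison used 2 of the 13 samples of the series, 1 per side, and 415 of its 547 immune genes. Genes with an average of more than 13.1 raw counts across all samples entered the comparison. This limit is the negative control mean plus 2 SD of each sample, averaged over the 13 samples. Cradd and Il23a lay just inside this limit, with mean counts of 13.2 each, and Tal1 and Lta lay just outside it, with 12.9 each.

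The series followed CT26 tumors, a colon carcinoma line grown in the flank of BALB/c mice, through local X-ray irradiation and regrowth. RNA of CD45+ cells, the leukocyte fraction, was counted with an nCounter immunology panel, in which barcoded probes bind RNA and are counted without amplification. Both samples were read in 1 run, together with a T2 sample after a single dose of 7.5 Gy (7.5 Gy × 1) and a baseline sample taken before irradiation. All groups were female BALB/c mice, 6 weeks old at the start, that carried the same tumor and no genetic change, and the CD45+ cells were enriched with magnetic antibodies, a step that can leave other tumor cells behind. The study's schedule places T2 within the 2 Gy course, so the 2 Gy × 5 sample was taken before the course had ended. Values given below as after 2 Gy × 5 are those of this sample, and the number of doses given by T2 is not stated. The methods give 3 mice per group, and whether a sample pools them or is 1 mouse is not stated. With 1 sample per side no test was made, and every interval below is a 95% interval that covers counting error only.

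Radiation breaks DNA and activates p53, and it exposes damaged cells to sensors that induce interferons, cytokines and chemokines. Neutrophils and monocytes follow these chemokines into damaged tissue, whereas lymphocytes are among the cells most easily killed by radiation. In bulk RNA, fewer cells of a type and less RNA of a gene per cell cannot be told apart.

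The total count was 416217 in the 2 Gy × 5 sample, 332531 in the 7.5 Gy × 1 sample, 199802 at baseline and 179579 in the 0 Gy sample, within the range of 166307 to 675847 over the series. The 14 housekeeping genes were 2.21 times as high in the 2 Gy × 5 sample as in the 0 Gy sample in raw counts (geometric mean), whereas the 6 positive control probes, which are added to every sample, were 1.15 times as high. Values below are the deposited normalized counts, in which the geometric mean of the housekeeping genes is 789 in each sample. On this scale single housekeeping genes still differed, with log2 ratios of 2 Gy × 5 over 0 Gy between -0.54 for Tubb5, a tubulin, and 0.31. Ptprc, which encodes CD45, had 346 normalized counts in the 2 Gy × 5 sample and 390 in the 0 Gy sample, a ratio of 0.887 (0.761 to 1.04). The 6 kept pan-leukocyte genes had a median log2 ratio of -0.08.

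The largest increases were in S100a9 and S100a8, the calprotectin subunits of neutrophils and monocytes, and the largest decrease was in Cxcl12, a chemokine of stromal cells. Of the 415 kept genes, 11 were at least 2-fold higher in the 2 Gy × 5 sample (2.65%) and 23 were at least 2-fold lower (5.54%). The higher genes included receptors of neutrophils and other myeloid cells, and the lower ones included T cell receptor components, lymphocyte surface proteins and stromal or endothelial genes. The log2 ratio over all kept genes had a median of -0.01 and quartiles of -0.28 and 0.29, and 316 genes (76.1%) differed by less than 1.5-fold. Scaled by the median of ratios over genes, 15 genes were higher and 20 lower, and scaled to total endogenous counts, 7 were higher and 41 lower, with Fcgr4, Trem1, Il1a and Ccl3 then under 2-fold at log2 ratios of 0.93, 0.92, 0.90 and 0.80. Scaled to the positive controls, which leave the difference in RNA amount in the values, 173 genes were higher and 1 was lower.

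**Figure D1:**
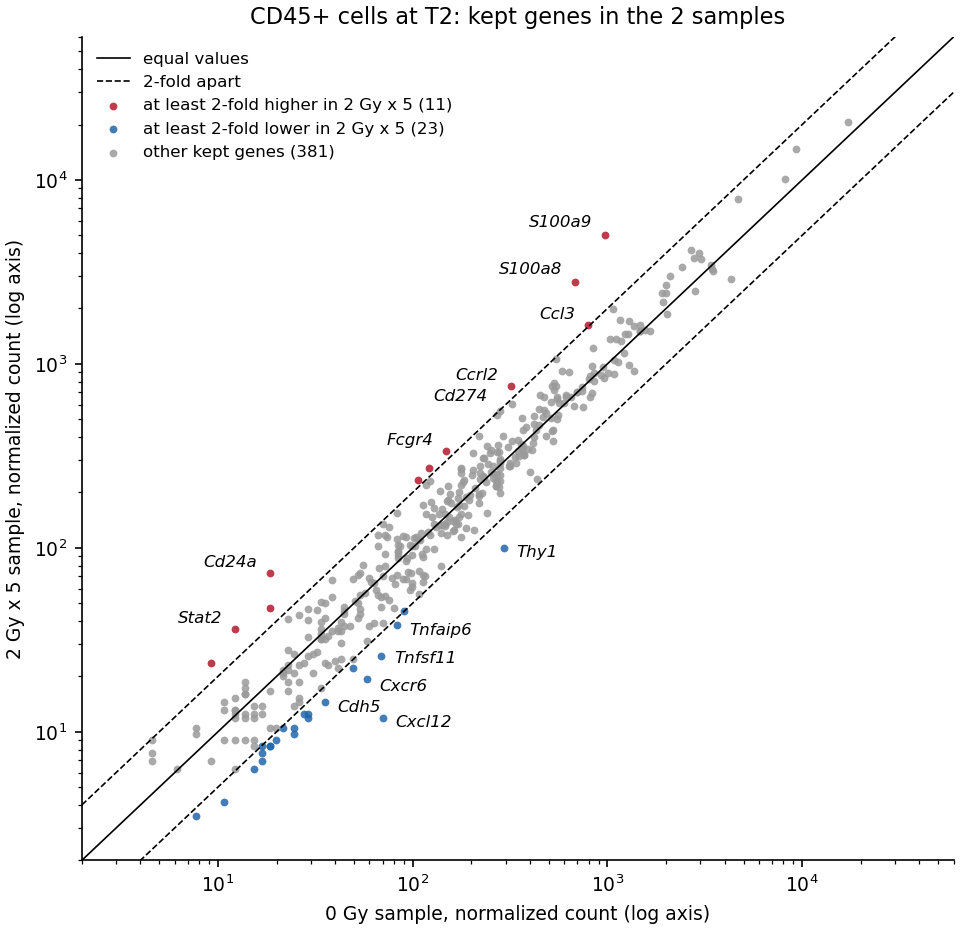
Normalized counts of the 415 kept genes in the 2 Gy × 5 sample (vertical, log axis) and the 0 Gy sample (horizontal, log axis), 1 point per gene, with lines at equal values and at 2-fold. The 11 higher genes reach from low counts (Nod2, Stat2) to S100a9 at 5015, whereas the 23 lower genes lie below 300 normalized counts in both samples.

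The depth behind the 2 directions differed. Over all 415 kept genes, whatever their fold, the counting interval lay above 1 for 94 (22.7%) and below 1 for 66 (15.9%), which is the background for the counts by interval in the gene lists below. The counting interval excluded a ratio of 1 for 11 of the 11 higher genes and for 13 of the 23 lower genes. Raw counts in the 0 Gy sample were under 20 for 4 of the higher genes and for 15 of the lower genes. The lower genes with an interval that included 1 were C6, Dpp4, Cd1d1, Cxcl13, Cd7, Foxp3, Tbx21, Cd79b, Irf4 and Cd6, and their difference was not detectable at this depth.

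**Figure D2:**
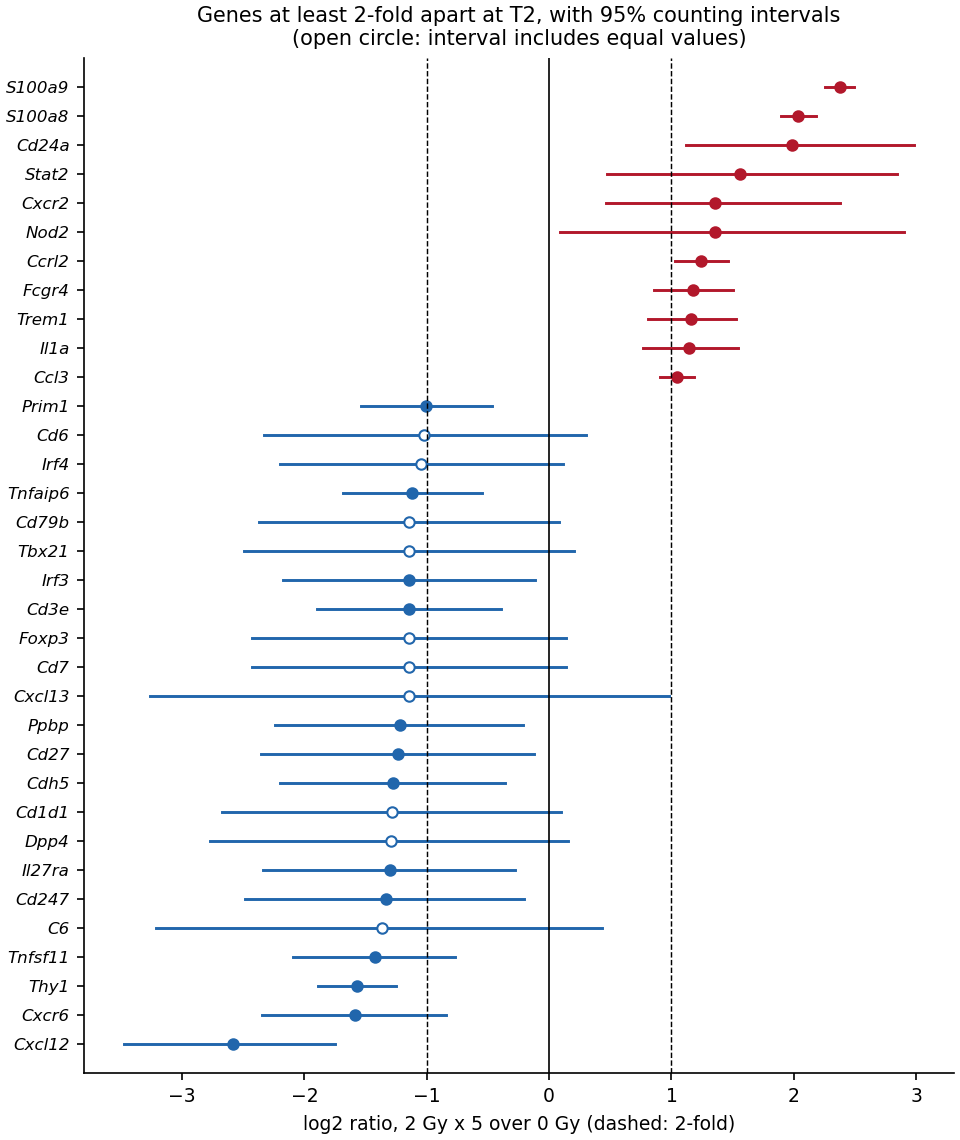
Log2 ratio of 2 Gy × 5 over 0 Gy for the 34 genes at least 2-fold apart (points) with 95% counting intervals (lines). Intervals are narrow for S100a9 and S100a8, and open points mark the 10 lower genes whose interval includes equal values.

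A comparison of 2 unirradiated samples of the same run gave a similar number of genes at this fold. Baseline over 0 Gy at T2 had 24 genes at least 2-fold higher (5.78%) and 3 at least 2-fold lower (0.723%), 27 in all, against 34 for 2 Gy × 5 over 0 Gy. The log2 ratios had an SD of 0.51 for baseline over 0 Gy and 0.56 for 2 Gy × 5 over 0 Gy. Medians of the gene lists below also shifted for baseline over 0 Gy. They were 0.93 for CD8 and cytotoxic markers, 0.61 for CD4 and Treg markers and 0.49 for T cell markers. For neutrophil markers the median was -0.31 and for CD45-negative markers -0.11, with 0.16 over all kept genes. The baseline and 0 Gy samples differed in the day of collection and are not replicates, and both comparisons share the 0 Gy sample. The genes at 2-fold whose interval excluded 1, all but Ppbp, are therefore given below with all 4 samples of the run. Some of the other named genes are given with the 2 Gy × 5 and 0 Gy samples only. Over all kept genes, the 2 Gy × 5 sample was above both unirradiated samples for 30.8% and below both for 43.6%. Among the genes at 2-fold, 10 of 11 were above both (all but Nod2) and 22 of 23 were below both (all but Irf3), where the selection itself places each gene on 1 side of the 0 Gy sample. For some named genes below, both irradiated samples are set against both unirradiated ones. The share of all kept genes with such an order was not counted, and many of the named genes were chosen by their distance from the 0 Gy sample.

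S100a9 had 5015 normalized counts after 2 Gy × 5, 232 after 7.5 Gy × 1, 499 at baseline and 967 after 0 Gy. The ratio of 2 Gy × 5 over 0 Gy was 5.19 (4.78 to 5.64). S100a8, which forms the calprotectin dimer with S100a9 and lies beside it on the same chromosome, had 2786, 383, 413 and 680 normalized counts in the same order of samples. Its ratio was 4.10 (3.71 to 4.53), and for both genes the 2 Gy × 5 sample stood apart above the other 3 of the run. Among all 13 samples of the series, including those of other runs, it ranked 9 for S100a9 and 8 for S100a8, counted from the highest. The pair made up 3.62% of all endogenous counts after 2 Gy × 5, 0.297% after 7.5 Gy × 1, 0.473% at baseline and 0.904% after 0 Gy.

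Their promoters are shown because the 2 genes are neighbours and had the highest ratios of the panel. Capitals mark matches to TTGCNNAA, a core of C/EBP sites, or GAGGAA, a core of PU.1 sites, on either strand (PU.1 and C/EBP factors direct myeloid gene expression), in the 250 bases before and 50 bases after the start site. Sequences are from RefSeq, build GRCm38.p6.
S100a8, chr3:90668821-90669120, plus strand: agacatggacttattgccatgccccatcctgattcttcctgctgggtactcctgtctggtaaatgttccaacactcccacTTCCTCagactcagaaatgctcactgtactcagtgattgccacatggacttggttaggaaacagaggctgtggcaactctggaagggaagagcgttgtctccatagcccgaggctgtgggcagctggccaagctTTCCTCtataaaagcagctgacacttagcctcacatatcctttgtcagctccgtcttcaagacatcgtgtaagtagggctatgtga
S100a9, chr3:90695672-90695971, minus strand: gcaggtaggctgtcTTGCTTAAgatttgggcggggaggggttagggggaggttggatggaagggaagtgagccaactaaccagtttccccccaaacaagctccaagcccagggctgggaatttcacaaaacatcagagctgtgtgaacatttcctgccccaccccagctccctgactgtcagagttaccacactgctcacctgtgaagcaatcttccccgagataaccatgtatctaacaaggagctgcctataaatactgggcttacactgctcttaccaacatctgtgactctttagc
The S100a8 window held 2 matches to the PU.1 core and 0 to the C/EBP core, and the S100a9 window held 1 match to the C/EBP core and 0 to the PU.1 core. Of 32851 promoters in the table, 10.8% held the C/EBP core and 28.3% the PU.1 core, and of the 383 promoters of kept genes, 12.5% and 33.9% held them. Of the 12 promoters listed for 10 of the 11 higher genes, 1 held the C/EBP core and 6 the PU.1 core, those of Ccl3, Cxcr2, Fcgr4, Il1a, S100a8 and Trem1. Of the 17 promoters listed for 16 of the 23 lower genes, 3 held each core. A match is a description of the letters and not of binding.

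Neutrophil receptors went the same way at lower counts. Cxcr2, the receptor through which neutrophils follow CXC chemokines, had 47.2 normalized counts after 2 Gy × 5, 5.13 after 7.5 Gy × 1, 17.2 at baseline and 18.4 after 0 Gy, a ratio of 2.56 (1.38 to 5.21) from 68 raw counts in the 2 Gy × 5 sample and 12 in the 0 Gy sample. Trem1, a receptor that amplifies inflammatory responses of neutrophils and monocytes, had 271, 50.4, 95.2 and 121 in the same order, a ratio of 2.23 (1.75 to 2.88). For both receptors the 2 Gy × 5 sample was the highest and the 7.5 Gy × 1 sample the lowest of the 4.

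The neutrophil list had 8 kept members, with a median log2 ratio of 0.95, against -0.01 over all kept genes, and 3 of the 8 were at least 2-fold higher (S100a8, S100a9 and Cxcr2). Another 2 members were just under 2-fold and were chosen here after their values were seen: Clec4e, the Mincle receptor, with 1065 and 546 normalized counts, and Csf3r, the receptor of G-CSF, with 219 and 117 (2 Gy × 5 and 0 Gy). Clec5a was the member with the lowest log2 ratio, -0.23. The summed level of the list was 9888 after 2 Gy × 5, 1496 after 7.5 Gy × 1, 2112 at baseline and 2990 after 0 Gy. S100a9 (5015) and S100a8 (2786) supplied most of the 2 Gy × 5 sum. Its excess over the 0 Gy sum therefore came mainly from these genes and does not measure the list as a whole. The median of 0.95 gives each member equal weight. Of the ligands, Cxcl1 had 4141 normalized counts after 2 Gy × 5 and 2674 after 0 Gy (ratio 1.55, 1.47 to 1.63), and Cxcl3 had 230 and 123 (1.87, 1.46 to 2.42). Ppbp, a chemokine stored in platelets, went the other way, with 12.5 and 29.2 normalized counts.

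**Figure D3:**
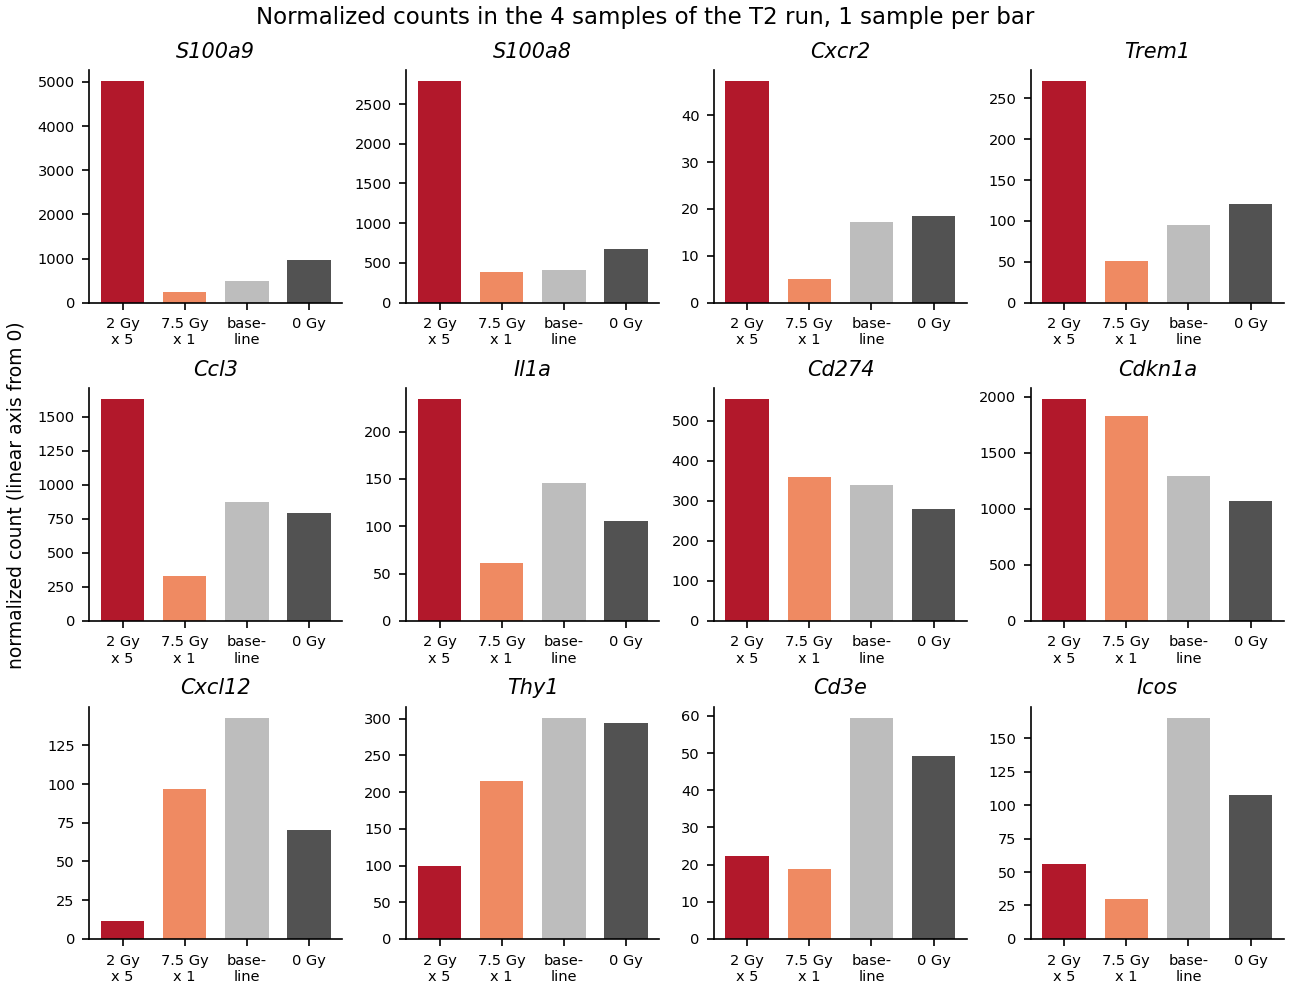
Normalized counts of 12 genes in the 4 samples of the run (bars, 1 sample each, linear axes from 0; each panel has its own axis). In the first 6 panels the 2 Gy × 5 bar is the tallest and the 7.5 Gy × 1 bar the shortest, and Cxcl12 and Thy1 have their shortest bar after 2 Gy × 5.

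Other myeloid receptors were higher as well. Ccrl2, an atypical receptor that binds chemerin, had 755 normalized counts after 2 Gy × 5, 297 after 7.5 Gy × 1, 504 at baseline and 319 after 0 Gy, a ratio of 2.37 (2.04 to 2.76). Fcgr4, an activating receptor for IgG on myeloid cells, had 335, 166, 227 and 149 in the same order, a ratio of 2.25 (1.81 to 2.83). Cd24a, a small surface protein of neutrophils, developing lymphocytes and many tumor cells, had 72.9, 22.2, 23.8 and 18.4, a ratio of 3.96 (2.17 to 7.91). These 3 genes were all highest after 2 Gy × 5, and Cd24a had the highest ratio of the 3.

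The monocyte and macrophage list as a whole did not share this direction. Its 16 kept members had a median log2 ratio of 0.02, with 1 at least 2-fold higher (Fcgr4) and 0 lower. Complement C1qa, made by macrophages, had 910 normalized counts after 2 Gy × 5 and 1376 after 0 Gy, and the scavenger receptor Cd36 had the lowest ratio of the list together with Cd163, with log2 ratios of -0.90 each. Csf1r, the receptor of M-CSF, had 258 and 402 normalized counts (ratio 0.643, 0.547 to 0.756). C1qa, Cd163 and Csf1r were chosen after their values were seen. The counting intervals lay above 1 for 7 members and below 1 for 6.

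Among innate sensors, Nod2, which detects bacterial cell wall fragments, had 34 raw counts in the 2 Gy × 5 sample and 6 in the 0 Gy sample. The count in the 0 Gy sample did not exceed the background of its sample (6.23), so Nod2 was at least 2.47-fold higher when its normalized count was set against that background level. This leaves out the counting error, and the interval of the ratio of the 2 counts was 1.06 to 7.47. Its normalized counts were 23.6 after 2 Gy × 5, 15.4 after 7.5 Gy × 1, 33.1 at baseline and 9.21 after 0 Gy, so the baseline sample was above the 2 Gy × 5 sample. The 7 kept lectin, NOD and inflammasome genes had a median log2 ratio of 0.53, and 1 of 7 was at 2-fold (Nod2). The 19 Toll-like receptor and adaptor genes had a median of 0.16 and none was at 2-fold in either direction. Tlr2, a receptor for bacterial lipoproteins, had the highest ratio among them (1.72, 1.25 to 2.40). Its normalized counts were 129 after 2 Gy × 5, 118 at baseline and 75.2 after 0 Gy.

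Of the inflammatory cytokines, Il1a, an alarmin of the interleukin 1 family, had 234 normalized counts after 2 Gy × 5, 60.7 after 7.5 Gy × 1, 145 at baseline and 106 after 0 Gy, a ratio of 2.21 (1.70 to 2.91). Ccl3, a chemokine for monocytes, NK cells and T cells, had 1628, 328, 877 and 790 in the same order, a ratio of 2.06 (1.87 to 2.27). Both were highest after 2 Gy × 5 and lowest after 7.5 Gy × 1.

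The 12 kept inflammatory cytokines had a median log2 ratio of 0.31 and 1 of 12 was at 2-fold (Il1a), and the intervals lay above 1 for 6 and below 1 for 0. Il1b had the highest level of the list, with 3776 normalized counts after 2 Gy × 5, 4097 at baseline and 2791 after 0 Gy, so the 2 Gy × 5 sample was between the unirradiated samples. Il6, chosen after its values were seen, had 606 after 2 Gy × 5, 609 after 7.5 Gy × 1, 349 at baseline and 324 after 0 Gy (ratio 1.87, 1.61 to 2.19), and both irradiated samples were above both unirradiated ones. Il10, which restrains myeloid and T cell activation and had the highest ratio of the suppressive mediators, had 154, 66.6, 56.9 and 82.9 in the same order (1.86, 1.38 to 2.55). The 20 genes of NF-kB and TNF signalling had a median of 0.24 with none at 2-fold, and 9 had an interval above 1 and 0 below. Nfkbia, the inhibitor that NF-kB itself induces, had 3713 and 3033 normalized counts after 2 Gy × 5 and 0 Gy.

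Monocyte chemokines divided. Ccl2, the main ligand of Ccr2 and the most abundant gene of this list, had 7907 normalized counts after 2 Gy × 5, 8983 after 7.5 Gy × 1, 4051 at baseline and 4689 after 0 Gy (ratio 1.69, 1.62 to 1.76). Ccl12, a related mouse chemokine, had 237, 151, 443 and 433 in the same order (0.547, 0.466 to 0.643). The list of 9 had a median of 0.02 and none at 2-fold. For Ccl2 both irradiated samples lay above both unirradiated ones, and for Ccl12 both lay below.

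Stat2, a transcription factor of type I interferon signalling, was the 1 interferon-stimulated gene at 2-fold, of 16. It had 36.1 normalized counts after 2 Gy × 5, 69.2 after 7.5 Gy × 1, 22.5 at baseline and 12.3 after 0 Gy, a ratio of 2.94 (1.39 to 7.17) from 52 and 8 raw counts. Both irradiated samples were above both unirradiated samples. The list had a median log2 ratio of 0.32, with 15 of 16 members above 0, and the interval lay above 1 for 11 and below 1 for 0. Bst2 (tetherin) had the highest level, with 1364 and 1100 normalized counts after 2 Gy × 5 and 0 Gy, and Psmb9, an immunoproteasome subunit, had the lowest log2 ratio, -0.16. The 13 interferon ligands and receptors had a median of -0.06, and Irf3, a factor that switches on Ifnb1, was the 1 member at 2-fold. Irf3 had 12.5 normalized counts after 2 Gy × 5, 22.2 after 7.5 Gy × 1, 10.6 at baseline and 27.6 after 0 Gy (ratio 0.453, 0.222 to 0.922), so that the 2 unirradiated samples were the lowest and the highest of the run.

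Cdkn1a, the p21 cell cycle inhibitor that p53 induces, had 1976 normalized counts after 2 Gy × 5, 1827 after 7.5 Gy × 1, 1291 at baseline and 1068 after 0 Gy, a ratio of 1.85 (1.70 to 2.01), under 2-fold. Both irradiated samples were above both unirradiated samples. Of the 14 genes of the p53 and cell death list none was at 2-fold, and the median was 0.09. Bcl2, which opposes apoptosis, had the lowest log2 ratio, -0.53.

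Cd274, which encodes PD-L1, had 553 normalized counts after 2 Gy × 5, 360 after 7.5 Gy × 1, 339 at baseline and 279 after 0 Gy. Its ratio of 1.98 (1.68 to 2.34) was just under 2-fold, and scaled by the median of ratios its log2 ratio was 1.04. Pdcd1, which encodes PD-1, had 13 and 8 raw counts after 2 Gy × 5 and 0 Gy and 9.03 and 12.3 normalized counts (ratio 0.736, 0.283 to 2.05), which gave no detectable difference at this depth. The 6 checkpoint genes had a median of 0.06.

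Of the 15 kept T cell markers, 6 were at least 2-fold lower (Thy1, Cd247, Cd27, Cd3e, Cd7 and Cd6), and 0 were higher, with a median log2 ratio of -0.69. The intervals of Cd6 and Cd7 included 1, and scaled by the median of ratios 5 of the 15 were at least 2-fold lower, without Cd6. The interval lay below 1 for 6 of the 15 and above 1 for 0. Thy1, carried by T cells and by fibroblasts in mice, had 99.3 normalized counts after 2 Gy × 5, 215 after 7.5 Gy × 1, 302 at baseline and 295 after 0 Gy, a ratio of 0.337 (0.270 to 0.421). Cd3e, a chain of the T cell receptor complex, had 22.2, 18.8, 59.5 and 49.1 in the same order, a ratio of 0.453 (0.268 to 0.763) from 32 raw counts in each sample. Both irradiated samples were below both unirradiated ones for Cd3e and for Thy1.

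Cd247, the signalling zeta chain of the receptor, had 9.72 normalized counts after 2 Gy × 5, 11.96 after 7.5 Gy × 1, 27.8 at baseline and 24.6 after 0 Gy (ratio 0.396, 0.179 to 0.866). Cd27, a co-stimulatory receptor, had 10.4, 9.40, 29.1 and 24.6 in the same order (0.424, 0.195 to 0.916). The other members ranged from -0.71 for Cd2, an adhesion receptor, to 0.03 on the log2 scale. Cd2 and Lck, a kinase of the receptor (-0.69), which were named after their values were seen, had intervals below 1. Cd3d had 20.1 and 21.5 normalized counts after 2 Gy × 5 and 0 Gy (0.938, 0.480 to 1.92), and Il7r, the interleukin 7 receptor, had the highest log2 ratio of the list, 0.03. The list also holds Cd3eap, which despite its symbol encodes an RNA polymerase I subunit, at -0.01. The summed level of the T cell list was 526 after 2 Gy × 5, 525 after 7.5 Gy × 1, 1202 at baseline and 870 after 0 Gy. This sum includes Thy1, which fibroblasts also carry and which was lower after 2 Gy × 5 than after 7.5 Gy × 1. The sum therefore does not measure T cells alone, and its near equality in both irradiated samples does not hold for each member.

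**Figure D4:**
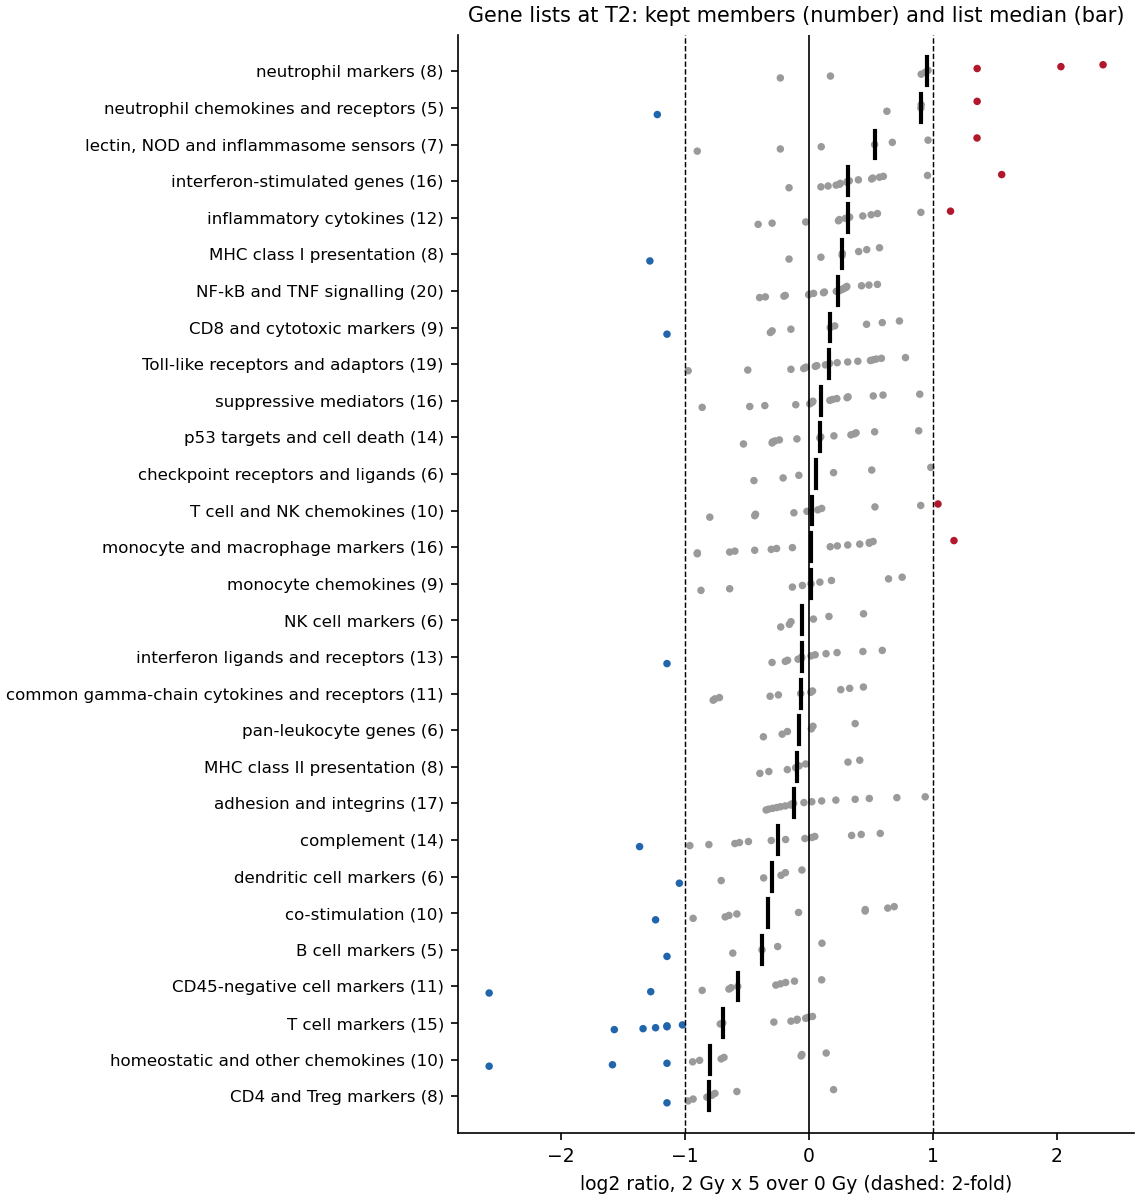
Log2 ratio of 2 Gy × 5 over 0 Gy for every kept member (points) of 29 gene lists, with the list median as a bar and the number of kept members in brackets; a gene can be in several lists. The neutrophil list is at the top with a median of 0.95 and the CD4 and Treg list at the bottom with -0.80, while most lists have medians between -0.40 and 0.40.

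The CD4 and Treg list had the lowest median, -0.80 over 8 kept members, of which 1 was at least 2-fold lower (Foxp3, with 12 raw counts in each sample). Gata3, a T helper 2 factor also present in other lymphocytes, was just outside 2-fold with 36 and 32 raw counts after 2 Gy × 5 and 0 Gy (scaled ratio 0.509, 0.307 to 0.847). Icos, a co-stimulatory receptor abundant on Treg cells, had 56.3 after 2 Gy × 5, 29.9 after 7.5 Gy × 1, 165 at baseline and 107 after 0 Gy (0.524, 0.376 to 0.732). Gata3 and Icos were chosen after their values were seen. Ctla4 went the other way, with 68.8 and 59.8 normalized counts after 2 Gy × 5 and 0 Gy (1.15, 0.786 to 1.71).

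The CD8 and cytotoxic list had a median of 0.17 over 9 kept members, which turned to -0.14 over the members above background in both samples and to -0.07 with total endogenous counts, where the median of all kept genes was -0.25. Tbx21, the T-bet factor, was the 1 member at least 2-fold lower, with 11 raw counts in each sample. Gzmb, a granzyme and the most abundant member, had 95.1 and 84.4 normalized counts after 2 Gy × 5 and 0 Gy (ratio 1.13, 0.819 to 1.57). Cd8a, which defines CD8 T cells, had 11 and 3 raw counts, and the count in the 0 Gy sample was at background. The 6 NK cell genes had a median of -0.05 with none at 2-fold. The 5 B cell genes had a median of -0.38, with Cd79b at 13 raw counts in each sample.

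Cxcr6, the receptor of Cxcl16 on T cells that reside in tissue, had 19.4 normalized counts after 2 Gy × 5, 21.4 after 7.5 Gy × 1, 55.5 at baseline and 58.3 after 0 Gy, a ratio of 0.333 (0.197 to 0.558). Tnfsf11, the cytokine RANKL made by T cells and stromal cells, had 25.7, 40.2, 55.5 and 69.1 in the same order (0.372, 0.234 to 0.588). Il27ra, a receptor subunit for interleukin 27, had 11.81, 11.96, 29.1 and 29.2 (0.405, 0.198 to 0.823). For all 3 genes both irradiated samples were below both unirradiated ones, an order whose share over all kept genes was not counted. Prim1, a subunit of DNA primase, had 45.1, 48.7, 87.3 and 90.5 in the same order (0.499, 0.345 to 0.722) and showed the same order of samples.

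Cxcl12 and Cdh5, used here as stromal and endothelial markers, were measurable in every sample of the run, and whether leukocytes contributed to their RNA was not tested. Cxcl12 had 11.8 normalized counts after 2 Gy × 5, 96.5 after 7.5 Gy × 1, 143 at baseline and 70.6 after 0 Gy, 5.98-fold lower after 2 Gy × 5 than after 0 Gy (ratio 0.167, 0.0899 to 0.297) from 17 and 46 raw counts. Tnfaip6, a hyaluronan-binding protein of inflamed tissue that is not in the marker list, had 38.2, 312, 147 and 82.9 in the same order (0.461, 0.311 to 0.684). Cdh5, the endothelial VE-cadherin, had 14.6, 39.3, 26.5 and 35.3 (0.413, 0.218 to 0.781). The 2 Gy × 5 sample was the lowest of the 4 for each of these genes, whereas the 7.5 Gy × 1 sample was the highest for Tnfaip6 and Cdh5.

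The list of markers of CD45-negative cells had 11 kept members, a median log2 ratio of -0.57, 2 at least 2-fold lower (Cxcl12 and Cdh5) and 0 higher. Fibronectin (Fn1), its most abundant member, had 2885 normalized counts after 2 Gy × 5, 6901 after 7.5 Gy × 1, 4039 at baseline and 4290 after 0 Gy. The summed level of the list was 4052 after 2 Gy × 5, 8514 after 7.5 Gy × 1, 5439 at baseline and 5775 after 0 Gy. Fn1 made up most of this sum in each sample, and which cells its RNA came from was not tested. The part of CD45-negative cells in the lower values of Thy1, Tnfsf11 and Cxcl12 was not tested. Homeostatic chemokines and receptors, which include Cxcl12 and Cxcr6, had a median of -0.79 over 10 kept genes, of which 3 were at least 2-fold lower, the third being Cxcl13 with 5 raw counts in each sample, at background in both.

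Antigen presentation was measured by genes of both MHC classes. The 8 MHC class II genes had a median of -0.09 with none at 2-fold, and Cd74, the invariant chain, had 2490 normalized counts after 2 Gy × 5, 1493 after 7.5 Gy × 1, 3999 at baseline and 2806 after 0 Gy. The 8 MHC class I genes had a median of 0.27, and B2m, their shared light chain, had 20715 and 17186 normalized counts after 2 Gy × 5 and 0 Gy (ratio 1.21, 1.18 to 1.23). Cd1d1, which presents lipids to NKT cells, was the 1 member at 2-fold, lower, with 10 and 11 raw counts. The 10 co-stimulation genes had a median of -0.33, the 6 dendritic cell genes -0.29, the 14 complement genes -0.24, the 17 adhesion genes -0.12, the 16 suppressive mediators 0.10, the 11 common gamma-chain genes -0.06 and the 10 T cell and NK chemokines 0.03.

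The T2 values of the 2 Gy × 5 sample also differed from those of the 7.5 Gy × 1 sample. Relative to the same 0 Gy sample, 7.5 Gy × 1 had 15 genes at least 2-fold higher (3.61%) and 71 at least 2-fold lower (17.1%). The neutrophil list had a median log2 ratio of 0.95 after 2 Gy × 5 and -1.12 after 7.5 Gy × 1, the MHC class II list -0.09 and -1.09, and the CD45-negative list -0.57 and 0.16. The T cell list had -0.69 and -1.04, and the interferon-stimulated list 0.32 and 0.63. Other leukocyte lists were also low after 7.5 Gy × 1, where the median of all kept genes was -0.01. Medians were -0.08 and -0.54 for pan-leukocyte genes, -0.05 and -0.71 for NK cell genes and -0.38 and -0.58 for B cell genes. The monocyte and macrophage and the dendritic cell medians were also lower after 7.5 Gy × 1. The CD8 and cytotoxic list had 0.17 and -0.08. The lower medians were thus not specific to the neutrophil, MHC class II and T cell lists. Both ratios are taken over 1 shared 0 Gy sample, and no test of their difference was made. At T2 the single dose was complete and the 2 Gy course was not, so the doses received also differed. Over all kept genes the 2 Gy × 5 sample was the highest of the 4 for 18.8% and the lowest for 24.1%.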

How the data were processed

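RNA of CD45+ cells sorted from tumors was counted with the nCounter mouse immunology panel. The deposited raw table holds counts per probe, with none of the values normalized by the authors. The deposited normalized table holds signal values, which the authors made by multiplying each sample's counts by 1 factor that sets the geometric mean of 14 housekeeping probes to 789, with a floor at the geometric mean of the 8 negative controls. This was read from the values, and the software is not given in the sources used here. The series table repeated them, with 0 of 7475 values different. Factors were 0.694 for the 2 Gy × 5 sample, 0.854 for 7.5 Gy × 1, 1.32 at baseline and 1.53 for 0 Gy. Such scaling assumes that housekeeping genes keep their share of RNA.

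Of 561 accessions, 549 matched a current symbol in RefSeq and 12 did not, 6 of them among the 415 kept genes, and these were in no list. Log2 ratios were taken from the normalized values with a floor of 1, and genes were counted at 2-fold. The 95% interval is the exact binomial (Clopper-Pearson) interval of the 2 raw counts, times the ratio of factors. A raw count at or under the mean plus 2 SD of the sample's negative controls (8.51 in the 2 Gy × 5 sample, 6.23 in the 0 Gy sample) was called background. The interval was tested on counts simulated with counting error only and a fixed scaling ratio, which cannot show whether it covers variation between samples. Scaling by median of ratios, total endogenous counts, positive controls and pan-leukocyte genes, background subtraction, other filters, a pseudocount and other thresholds were tried as alternatives.

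Every kept gene at 2-fold is named, with values where its interval excludes 1. From each of 30 lists the member with the highest level, highest ratio and lowest ratio could be named, as could Ptprc, Cd274, Pdcd1 and Cdkn1a. The list of mast cells, basophils and eosinophils had 0 kept genes. The members and lists were chosen with earlier results of these data known. Python 3.11.15, numpy 2.4.6, pandas 2.3.3, scipy 1.17.1 and matplotlib were used.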

Additional observations from a re-analysis of the deposited data

Results flagged for a closer look

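The same contrast, 2 Gy × 5 over 0 Gy, ran in opposite directions by at least 2-fold at T2 and T7 for 3 genes, each with 1 sample per side, so the difference was not tested. Cd27 had a log2 ratio of -1.24 at T2 and 1.18 at T7. Cd1d1, which presents lipid antigens, had -1.28 at T2 and 1.83 at T7, and Dpp4, a peptidase on activated T cells, had -1.30 at T2 and 1.51 at T7. At T2 the raw counts after 2 Gy × 5 and 0 Gy were 15 and 16 for Cd27, 10 and 11 for Cd1d1 and 9 and 10 for Dpp4. The T2 counting intervals of Cd1d1 and Dpp4 included 1. At T7 the raw counts were also low, with 21 and 11 for Cd27, 27 and 9 for Cd1d1 and 24 and 10 for Dpp4. T7 was read in another nCounter run than T2, with its 2 samples in 1 run. No gene list had medians of at least 0.5 (log2) in size in opposite directions at T2 and T7.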

How the results depend on the processing

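No paired analysis was possible because each condition has 1 sample, and for the same reason no replicate could be left out. The 11 genes at least 2-fold higher became 7 with total endogenous counts, 173 with positive controls, 21 after the negative control mean was subtracted, 17 without a filter and 42 at 1.5-fold. The 23 lower genes became 41 with total endogenous counts, 1 with positive controls, 36 without a filter, 2 with a pseudocount of 20, 57 at 1.5-fold and 13 with an interval that excludes 1. The all-gene median log2 ratio was -0.25 with total endogenous counts and 0.93 with positive controls. With positive controls the medians turned to 0.15 for homeostatic chemokines, 0.25 for T cell markers, 0.14 for CD4 and Treg markers and 0.37 for CD45-negative markers, all below the all-gene median of 0.93. Centred on that median, positive controls gave 11 higher and 22 lower genes, an alternative added after seeing the data, as were centring itself (11 and 22) and leaving Tubb5 out of the housekeeping genes (11 and 26). With median of ratios or pan-leukocyte genes, 11 of the 11 higher and 20 of the 23 lower genes stayed at 2-fold, all but Prim1, Cd6 and Irf4. For baseline over 0 Gy, 3 lower genes became 6 with median of ratios. Raw counts under 20 in the 0 Gy sample limit 15 of the 23 lower genes.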
